A study of Mus musculus with 8 samples.

Results

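Transcripts of 38 mouse genes that build the meiotic chromosome axis and synaptonemal complex and that make and repair meiotic DNA breaks were measured in adult testis. The genes were taken from a list of symbols for meiotic cohesins, the synaptonemal complex, recombination and telomere attachment. All 38 were found by symbol among the 24988 Ensembl genes of the deposited matrix, and all 38 had a mean of at least 0.5 CPM, the minimum for testing, as did 22027 genes in all. CPM are read counts scaled by library size. The libraries were made from total RNA of adult testis: 4 are labelled Kpna2 knockout with the genotype Kpna2-/-, and 4 are labelled wild type with the genotype WT. The Kpna2 product is an importin alpha, which ferries proteins through nuclear pores into the nucleus. The labels give neither the strain nor the exact age, do not describe the allele, and do not tell how many animals gave the RNA, so p-values measure the spread between libraries, which may be technical. Testis is a mixture of germ cells of all stages with somatic cells, so fewer cells of a type and less RNA per cell cannot be told apart.

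In meiotic prophase, cohesin rings and HORMA-domain proteins fold each chromosome into an axis. The topoisomerase-like SPO11 cuts DNA at sites chosen by PRDM9, and the cut ends are resected and loaded with recombinases, among them DMC1, which search for the homologous chromosome. The synaptonemal complex then zips homologues together while MutS and MutL complexes turn some of the joined molecules into crossovers. Telomeres are tied to the nuclear envelope meanwhile. Spermatocytes that fail in these steps are known to arrest and die in mouse testis, and loss of many of these genes makes male mice sterile.

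Kpna2 itself was higher, not lower, under the knockout label: it had 15.3, 20.2, 19.4 and 21.7 CPM in the libraries labelled knockout, against 13.97, 15.1, 14.04 and 12.4 CPM in those labelled wild type (log2 fold change 0.44, SE 0.10, limma adjusted p = 0.0079, and p = 0.029 in an exact two-sided permutation test, the smallest that 70 assignments allow). The target gene goes against the labels as far as counts per gene can show, and such counts do not tell which exons the reads came from. Groups are therefore named by their labels throughout. The libraries held 31133443 to 37797812 reads, and a mean of each gene's 4 libraries is given ± SD (n = 4 per group). Log2 fold changes are of log2(CPM + 0.5), labelled knockout minus labelled wild type, which understates the change of low genes. A gene is called when its limma p, adjusted by Benjamini-Hochberg over the 22027 genes, is under 0.05, and "rose" and "fell" are used of called genes alone.

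Of the 38 meiotic genes, 8 were called (21.1%), against 16.9% of all tested genes, a share near the background. The break-formation genes Mei1 and Spo11 and the crossover helicase gene Hfm1 rose. The strand-exchange genes Mnd1 and Meiob, the crossover genes Rnf212 and Msh5 and the synaptonemal complex gene Sycp1 fell. The calls were 3 higher (8.62% of all tested genes) and 5 lower (8.32% of all tested genes). The 4 values of each group did not overlap for 7 of the 38 genes (18.4%), against 20.9% of all tested genes. Of these, 3 were higher under the knockout label (10.1% of all tested genes) and 4 lower (10.7% of all tested genes). The median log2 fold change of the 38 was -0.03, and that of all tested genes -0.01. Mnd1 was the 1 gene of the 38 that moved by at least 1 log2 unit.

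**Figure D1:**
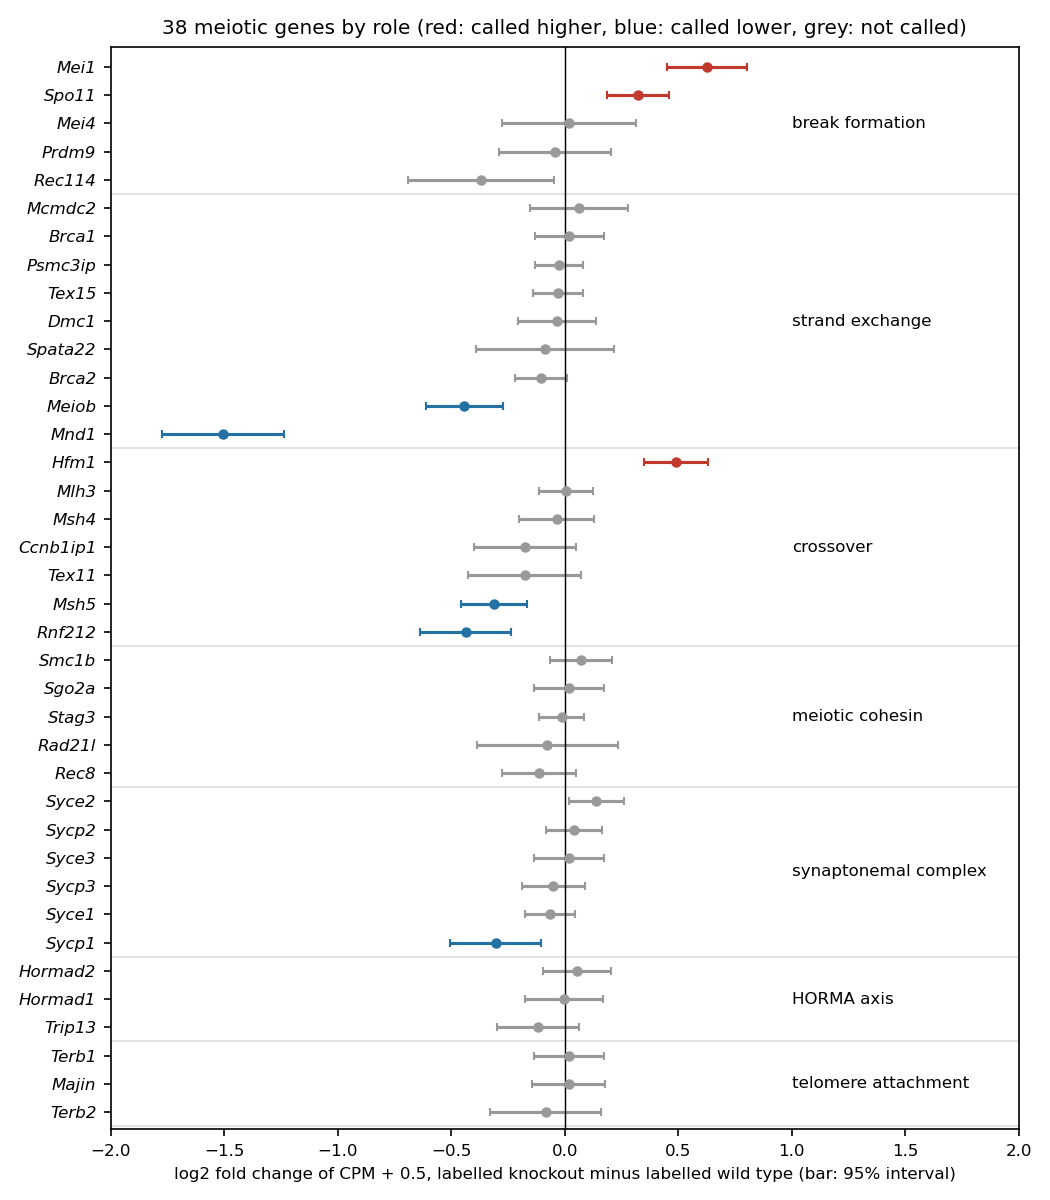
Log2 fold change (x axis, log2 of CPM + 0.5, labelled knockout minus labelled wild type) of each of the 38 meiotic genes with its 95% interval, grouped by role and ordered by size within a role. Mnd1 lies at -1.51, the other 7 called genes between -0.44 and 0.63, and the 30 genes not called between -0.37 and 0.14.

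Promoter sequences of RefSeq (GRCm38.p6, 250 bases before to 50 after the transcript start) were matched by symbol for 31 of the 38 genes in 37 windows, 6 of them of called genes. The windows of 5 called genes are shown, because their letters can be set beside the direction of change: Hfm1 rose, and Mnd1, Sycp1, Rnf212 and Msh5 fell. Capitals mark matches, on either strand, to CNCCTCAG (the type of motif bound by the meiotic initiator STRA8), CACGTG (an E-box), TTCCCGC (E2F type), GGCAGTT (MYB type), GTTGCCA (RFX type) and TGACGTNA (a cAMP response element). All lie on the minus strand and are written 5′ to 3′ of the gene, at chr5:106925841-106926140 (Hfm1), chr3:84155737-84156036 (Mnd1), chr3:102936051-102936350 (Sycp1), chr5:108774978-108775277 (Rnf212) and chr17:35046573-35046872 (Msh5).
Hfm1: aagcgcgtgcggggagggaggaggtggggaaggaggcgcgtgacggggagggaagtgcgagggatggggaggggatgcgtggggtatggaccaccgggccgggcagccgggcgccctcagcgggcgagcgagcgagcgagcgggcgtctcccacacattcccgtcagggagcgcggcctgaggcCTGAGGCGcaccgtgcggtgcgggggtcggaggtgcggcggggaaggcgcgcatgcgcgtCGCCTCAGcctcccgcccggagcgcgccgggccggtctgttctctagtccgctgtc
Mnd1: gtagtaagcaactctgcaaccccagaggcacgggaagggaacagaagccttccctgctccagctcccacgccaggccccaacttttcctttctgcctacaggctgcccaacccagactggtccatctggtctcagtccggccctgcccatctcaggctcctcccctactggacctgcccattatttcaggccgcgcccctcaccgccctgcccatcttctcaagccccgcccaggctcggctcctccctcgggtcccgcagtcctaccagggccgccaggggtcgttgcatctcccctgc
Sycp1: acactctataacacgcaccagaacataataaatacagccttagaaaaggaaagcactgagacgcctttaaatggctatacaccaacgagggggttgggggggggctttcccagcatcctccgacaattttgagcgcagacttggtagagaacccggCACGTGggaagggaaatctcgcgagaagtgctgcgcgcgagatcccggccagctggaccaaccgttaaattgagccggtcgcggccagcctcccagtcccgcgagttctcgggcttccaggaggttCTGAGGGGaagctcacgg
Rnf212: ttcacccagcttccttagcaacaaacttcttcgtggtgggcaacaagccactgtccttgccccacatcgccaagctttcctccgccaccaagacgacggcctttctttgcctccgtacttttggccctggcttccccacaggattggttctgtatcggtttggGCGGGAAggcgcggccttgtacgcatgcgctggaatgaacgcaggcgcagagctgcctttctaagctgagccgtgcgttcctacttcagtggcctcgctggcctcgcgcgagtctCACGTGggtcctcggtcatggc
Msh5: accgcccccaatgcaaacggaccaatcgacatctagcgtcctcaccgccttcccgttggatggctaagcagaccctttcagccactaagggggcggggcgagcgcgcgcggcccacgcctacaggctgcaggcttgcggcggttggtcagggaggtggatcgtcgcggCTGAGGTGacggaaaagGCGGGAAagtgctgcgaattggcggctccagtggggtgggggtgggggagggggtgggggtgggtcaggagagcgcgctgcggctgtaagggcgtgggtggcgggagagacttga

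The Mnd1 window holds no capitals. Hfm1 holds CNCCTCAG at 2 places, Sycp1 and Msh5 hold it at 1 place each, and Mnd1 and Mei1 hold none of the 6 motifs. The Mei1 window, from 82082226 on chromosome 15, is not shown because it lies inside the annotated gene, far from its start at 82069996. The Hfm1 window also lies inside its annotated gene, but near the end at 106926321 where that minus-strand gene starts. Matches to CNCCTCAG thus occurred in windows of a gene that rose and of genes that fell. Over the 37 windows of the meiotic genes, CNCCTCAG was found in 6 (16.2%), against 7.94% of 32851 promoter windows of all genes. The E2F type was found in 13 windows (35.1%), against 4.60% of all, and the E-box in 8 (21.6%), against 7.15% of all. MYB type, RFX type and cAMP response element were found in 1, 2 and 2 windows, against 4.12%, 4.38% and 2.93% of all. The GC content of the meiotic windows ran from 29.0% (Rad21l) to 75.3% (Hfm1), and most of them lay above 52.7%, the median over all promoter windows. CNCCTCAG, TTCCCGC and CACGTG consist mostly of G and C, and the part of base composition in these shares was not tested. Motifs do not overlap in the windows shown, the paired windows of a gene such as Hormad1 share bases, and a match is a description of letters, not a bound site.

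Of the 5 break-formation genes 2 rose and none fell, where 8.62% of all tested genes were called higher and 8.32% lower. With 5 genes these shares cannot be compared. Mei1 (ENSMUSG00000068117), whose product is needed for break formation in mouse meiosis, had 14.2, 14.8, 14.7 and 13.1 CPM in the libraries labelled knockout, against 9.64, 9.36, 8.12 and 8.99 CPM in those labelled wild type. Every library labelled knockout lay above every library labelled wild type. The means were 14.2 ± 0.783 and 9.03 ± 0.662 CPM, a 1.57-fold rise (log2 fold change 0.63, SE 0.08, limma adjusted p = 0.00012).

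Spo11 (ENSMUSG00000005883), the catalytic subunit that cuts the DNA, had 78.7, 87.4, 76.9 and 82.7 CPM in the libraries labelled knockout, against 62.0, 71.2, 67.5 and 59.7 CPM in those labelled wild type. The groups did not overlap, and the rise was 1.25-fold (log2 fold change 0.32, SE 0.06, limma adjusted p = 0.0032). Spo11 is known to be spliced into isoforms that appear at different times of prophase, and counts per gene do not separate them.

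Rec114, an axis-bound partner in break formation, had 3.07, 1.74, 1.90 and 2.68 CPM in the libraries labelled knockout, against 3.09, 2.83, 3.23 and 3.33 CPM in those labelled wild type. Replicates 2 and 3 labelled knockout were the lowest libraries, and replicate 4 also lay below all those labelled wild type. Replicate 1 labelled knockout lay within the range of those labelled wild type, and the gene was not called (limma adjusted p = 0.11). It was called, as lower, in 1 of 20 alternatives, the one that left out replicate 1 labelled knockout (limma adjusted p = 0.035). Within each library the ratio of Mei1 to Rec114, which does not depend on how libraries are scaled, was 4.63 to 8.49 in the libraries labelled knockout and 2.51 to 3.31 in those labelled wild type. Mei4, which acts with Rec114, was the lowest of the 38 genes per length, with 0.577 ± 0.0839 CPM in the libraries labelled knockout and 0.564 ± 0.103 CPM in those labelled wild type, from 15 to 24 reads per library. Prdm9, the histone methyltransferase that marks break sites, stood at 6.87 ± 0.792 and 7.10 ± 0.961 CPM under the knockout and wild-type labels, with groups that overlapped (limma adjusted p = 0.84).

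**Figure D2:**
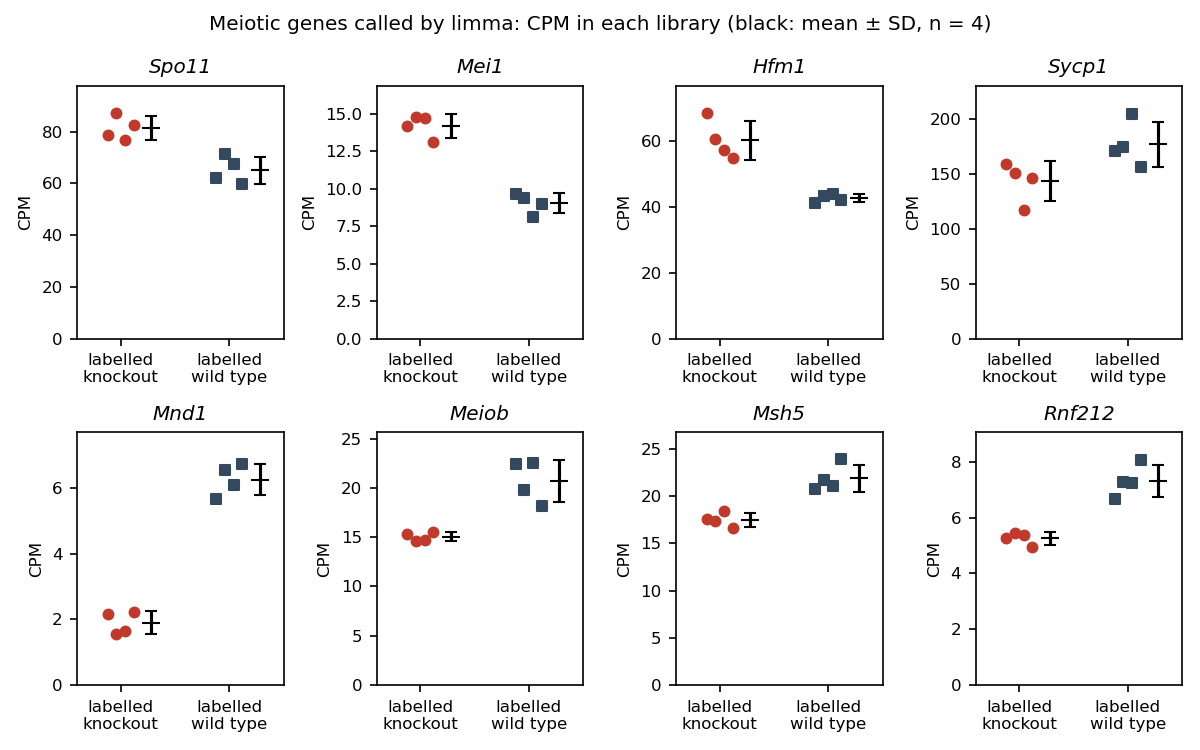
CPM (y axis, from 0) of the 8 called genes in each of the 4 libraries labelled knockout (circles) and the 4 labelled wild type (squares), with the mean ± SD in black. The groups stand apart for 7 genes, while for Sycp1 the library labelled knockout at 159 CPM lies above the library labelled wild type at 157 CPM.

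Among genes of strand exchange, Mnd1 (ENSMUSG00000033752) changed most. MND1 and PSMC3IP (HOP2) form a heterodimer that helps DMC1 invade the homologous DNA. Mnd1 had 2.16, 1.54, 1.65 and 2.24 CPM in the libraries labelled knockout, against 5.67, 6.56, 6.10 and 6.73 CPM in those labelled wild type. The lowest library labelled wild type was above the highest labelled knockout by a wide margin. The means were 1.90 ± 0.353 and 6.26 ± 0.480 CPM, a 3.30-fold fall (log2 fold change -1.51, SE 0.12, limma adjusted p = 2.2e-06), and 93 of the 22027 tested genes had a lower log2 fold change.

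Psmc3ip, the partner gene, stood at 109.6 ± 5.26 CPM in the libraries labelled knockout and 112 ± 3.27 CPM in those labelled wild type. It was not called (limma adjusted p = 0.77), and the 95% interval of its log2 fold change ran from -0.13 to 0.08. The Psmc3ip to Mnd1 ratio was 47.6, 71.6, 66.4 and 51.6 in the libraries labelled knockout, against 20.4, 16.9, 18.5 and 15.96 in those labelled wild type. Per kilobase of merged exon, Psmc3ip stood at 60.3 and 61.4 CPM under the knockout and wild-type labels and Mnd1 at 2.17 and 7.16 CPM, so the unequal levels of the partners were wider apart in the libraries labelled knockout.

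A pseudogene transcript, Mnd1-ps, is 97.1% identical to that of Mnd1 over 824 bases. With the multi-mapping setting not given in the sources used here, the split of reads between them is uncertain. Mnd1-ps stood at 1.25 ± 0.0257 CPM in the libraries labelled knockout and 1.60 ± 0.229 CPM in those labelled wild type, and was not called (limma adjusted p = 0.18). The sum of Mnd1 and Mnd1-ps was 3.15 ± 0.363 and 7.87 ± 0.268 CPM under the knockout and wild-type labels, 2.50-fold lower in the libraries labelled knockout.

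Meiob (ENSMUSG00000024155) encodes a protein that binds single-stranded DNA with SPATA22 and keeps meiotic recombination foci stable. It had 15.4, 14.6, 14.8 and 15.5 CPM in the libraries labelled knockout, against 22.4, 19.8, 22.5 and 18.1 CPM in those labelled wild type. The libraries labelled knockout were tightly grouped below all those labelled wild type, and Meiob fell 1.38-fold (log2 fold change -0.44, SE 0.08, limma adjusted p = 0.0015). Spata22 was at 3.94, 3.89, 2.49 and 2.94 CPM in the libraries labelled knockout, against 3.41, 3.81, 3.77 and 3.04 CPM in those labelled wild type, so the groups overlapped (limma adjusted p = 0.73). The Meiob to Spata22 ratio overlapped as well, at 3.75 to 5.94 in the libraries labelled knockout and 5.18 to 6.57 in those labelled wild type.

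The other strand-exchange genes were not called. Dmc1, the meiotic recombinase, stood at 16.04 ± 1.17 and 16.4 ± 1.36 CPM under the knockout and wild-type labels. Brca2, which loads recombinases, averaged 57.9 ± 2.12 CPM under the knockout label and 62.4 ± 3.02 CPM under the wild-type label (limma adjusted p = 0.20), and its interval of -0.22 to 0.01 on the log2 scale just included 0. Brca1, a repair protein that also acts on unsynapsed chromosomes, averaged 27.3 ± 2.54 CPM under the knockout label and 26.9 ± 1.07 CPM under the wild-type label. Mcmdc2, an MCM-like protein of homology search, averaged 10.7 ± 1.69 and 10.2 ± 0.393 CPM, and Tex15, needed for loading recombinases, 95.1 ± 1.68 and 97.2 ± 5.34 CPM under the knockout and wild-type labels. These 3 genes had limma adjusted p between 0.72 and 0.89, and their intervals included 0.

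**Figure D3:**
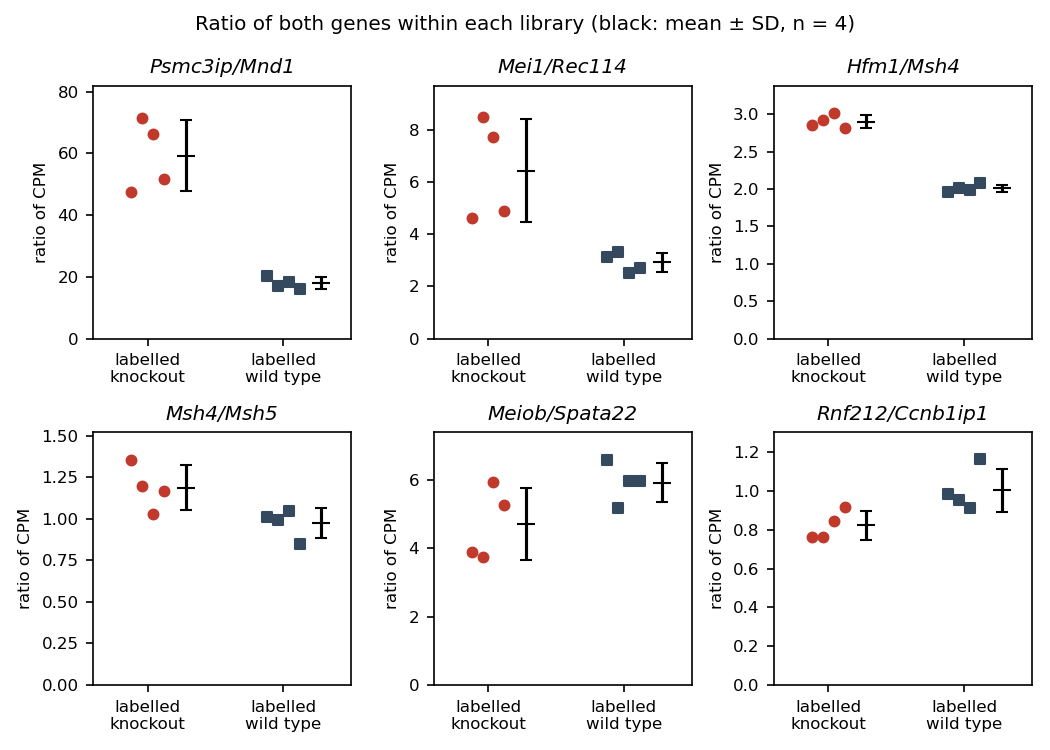
Ratio of the CPM of both genes of a pair within each library (y axis, from 0, no unit) for 4 libraries labelled knockout (circles) and 4 labelled wild type (squares), with the mean ± SD in black. Psmc3ip/Mnd1, Mei1/Rec114 and Hfm1/Msh4 stand apart between the groups, and the other 3 ratios overlap.

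Crossover genes went both ways. Hfm1 (ENSMUSG00000043410), a DNA helicase needed for crossovers and complete synapsis in mice, had 68.4, 60.6, 57.3 and 54.7 CPM in the libraries labelled knockout, against 41.0, 43.4, 43.8 and 42.2 CPM in those labelled wild type. All libraries labelled knockout were higher, and Hfm1 rose 1.41-fold (log2 fold change 0.49, SE 0.07, limma adjusted p = 0.00018). Its ratio to Msh4 was 2.81 to 3.02 in the libraries labelled knockout and 1.96 to 2.08 in those labelled wild type, with little spread within either group. Of 13 such ratios between genes of related roles, 3 did not overlap between the groups. They were Psmc3ip to Mnd1, Mei1 to Rec114 and Hfm1 to Msh4, and each has a called gene whose own groups did not overlap. The pairs were chosen with earlier results of these data known. No share over pairs of all genes was computed, so the count describes these pairs alone.

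Rnf212 (ENSMUSG00000055385), a RING-domain protein that stabilizes crossover-designated MutS complexes, had 5.25, 5.46, 5.39 and 4.95 CPM in the libraries labelled knockout, against 6.68, 7.28, 7.24 and 8.07 CPM in those labelled wild type. The groups did not overlap, and Rnf212 fell 1.39-fold (log2 fold change -0.44, SE 0.09, limma adjusted p = 0.0050). The gene 1700047L14Rik lies within Rnf212 on the opposite strand in the annotation, and it fell as well, with 1.93 ± 0.407 and 3.47 ± 0.439 CPM under the knockout and wild-type labels (limma adjusted p = 0.0031). With the strand setting likewise not given, the reads of these overlapping genes cannot be told apart. Ccnb1ip1 (HEI10), a RING-domain protein that acts against RNF212 in the choice of crossover sites, stood at 6.45 ± 0.789 and 7.33 ± 0.545 CPM under the knockout and wild-type labels and was not called (limma adjusted p = 0.28). The Rnf212 to Ccnb1ip1 ratio overlapped between groups, at 0.761 to 0.919 in the libraries labelled knockout and 0.913 to 1.16 in those labelled wild type.

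Msh5 (ENSMUSG00000007035), which pairs with MSH4 in the meiotic MutS complex, had 17.6, 17.3, 18.4 and 16.6 CPM in the libraries labelled knockout, against 20.8, 21.7, 21.0 and 23.9 CPM in those labelled wild type. Its groups did not overlap, and Msh5 fell 1.25-fold (log2 fold change -0.31, SE 0.07, limma adjusted p = 0.0061). Msh4 stood at 20.7 ± 2.21 and 21.2 ± 0.768 CPM under the knockout and wild-type labels, and was not called (limma adjusted p = 0.80). The Msh4 to Msh5 ratio was 1.03 to 1.36 in the libraries labelled knockout and 0.848 to 1.05 in those labelled wild type, so that the ratios overlapped. Mlh3, a MutL endonuclease subunit that resolves crossovers, stood at 40.5 ± 1.60 and 40.4 ± 1.69 CPM under the knockout and wild-type labels, and Tex11, an X-linked crossover gene, at 10.5 ± 1.97 and 11.9 ± 1.07 CPM. Neither was called (limma adjusted p = 0.97 and 0.33).

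The structural genes of the chromosome axis and synaptonemal complex held 1 call among 14, where 16.9% of all tested genes were called. So few genes do not allow the shares to be compared. Sycp1 (ENSMUSG00000027855) encodes the transverse filament that spans the gap between homologues. It had 159, 151, 117 and 146 CPM in the libraries labelled knockout, against 171, 175, 205 and 157 CPM in those labelled wild type. The groups overlapped slightly, replicate 3 stood lowest under the knockout label and replicate 3 highest under the wild-type label. Sycp1 fell 1.23-fold (log2 fold change -0.30, SE 0.09, limma adjusted p = 0.037). The call was lost when replicate 3 or 4 labelled knockout or replicate 1, 2 or 3 labelled wild type was left out (limma adjusted p between 0.060 and 0.11), and without a variance trend. A pseudogene transcript, Sycp1-ps1, is 92.4% identical over 2560 bases and stood at 10.2 ± 1.19 and 8.59 ± 0.493 CPM under the knockout and wild-type labels (limma adjusted p = 0.12). The sum of Sycp1 and Sycp1-ps1 was 153 ± 18.8 and 185 ± 20.6 CPM.

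The other components of the synaptonemal complex were not called. Of the lateral element genes, Sycp2 averaged 319 ± 21.2 CPM under the knockout label and 309 ± 17.3 CPM under the wild-type label. Sycp3 averaged 74.7 ± 6.33 and 77.2 ± 3.97 CPM. Of the central element genes, Syce1 averaged 298 ± 18.8 and 311 ± 10.1 CPM under the knockout and wild-type labels, and Syce3 51.9 ± 4.81 and 51.1 ± 3.66 CPM. Among these genes Syce2 had the lowest adjusted p, with 153, 159, 138 and 167 CPM in the libraries labelled knockout, against 141, 138, 143 and 137 CPM in those labelled wild type (limma adjusted p = 0.11). Replicate 3 was its 1 library labelled knockout inside the range of those labelled wild type. Syce2 was called, as higher, in 1 of 20 alternatives, the one that left out that library (limma adjusted p = 0.024). Per kilobase of exon, Syce1 was the highest of the 38 genes, at 204 CPM under the knockout label and 213 CPM under the wild-type label, followed by Syce3 at 93.9 and 92.5 CPM.

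None of the 5 cohesin genes was called, where 16.9% of all tested genes were, and 5 genes are too few to compare the shares. Stag3, a meiotic cohesin subunit, drew the most reads of the 38 genes, and stood at 445 ± 16.5 and 449 ± 15.9 CPM under the knockout and wild-type labels. The 95% interval of its log2 fold change was -0.11 to 0.09. Smc1b stood at 213 ± 16.8 and 202 ± 13.6 CPM and the kleisin gene Rec8 at 61.1 ± 6.19 and 66.1 ± 5.54 CPM under the knockout and wild-type labels. Rad21l, the alternative meiotic kleisin, had 2.66, 2.43, 1.48 and 2.27 CPM in the libraries labelled knockout, against 2.28, 2.37, 2.23 and 2.38 CPM in those labelled wild type, with replicate 3 labelled knockout as the low library. Sgo2a, a shugoshin that protects centromeric cohesin, averaged 18.3 ± 1.25 CPM under the knockout label and 18.1 ± 1.04 CPM under the wild-type label (limma adjusted p = 0.90).

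The 3 genes of the HORMA axis and the 3 of telomere attachment were not called either, again too few to set beside the 16.9% of all tested genes. Hormad1, an axis protein that marks unsynapsed chromosomes, stood at 47.9 ± 5.23 and 48.0 ± 3.86 CPM under the knockout and wild-type labels and had the highest adjusted p of the 38 (limma adjusted p = 0.98). Hormad2, its paralogue, averaged 17.7 ± 1.08 and 17.0 ± 0.755 CPM under the knockout and wild-type labels (limma adjusted p = 0.66). Trip13, the ATPase that removes HORMA proteins from synapsed axes, averaged 11.5 ± 0.937 and 12.5 ± 0.944 CPM (limma adjusted p = 0.38). At the telomeres, the membrane anchor gene Majin averaged 14.9 ± 1.01 CPM under the knockout label and 14.7 ± 0.789 CPM under the wild-type label, its partner Terb1 35.4 ± 2.89 and 34.9 ± 2.67 CPM, and Terb2 6.27 ± 1.07 and 6.61 ± 0.210 CPM. Their limma adjusted p were 0.91, 0.90 and 0.67, and the Majin to Terb1 ratio was 0.388 to 0.485 in the libraries labelled knockout and 0.383 to 0.448 in those labelled wild type.

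For the 30 genes not called, the log2 fold changes ran from -0.37 (Rec114) to 0.14 (Syce2). The half-width of their 95% intervals was 0.10 to 0.32 with a median of 0.16, and for 29 of them the interval lay within 0.5 log2 units of 0, Rec114 being the exception. A p that misses the threshold does not show that a level was equal. The intervals are on the log2(CPM + 0.5) scale, which damps the change of low genes, most of all that of Mei4 at a level close to 0.5 CPM, so its interval does not limit a difference in CPM to the same size. Unadjusted p was under 0.05 for 2 of the 30, Syce2 and Rec114.

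**Figure D4:**
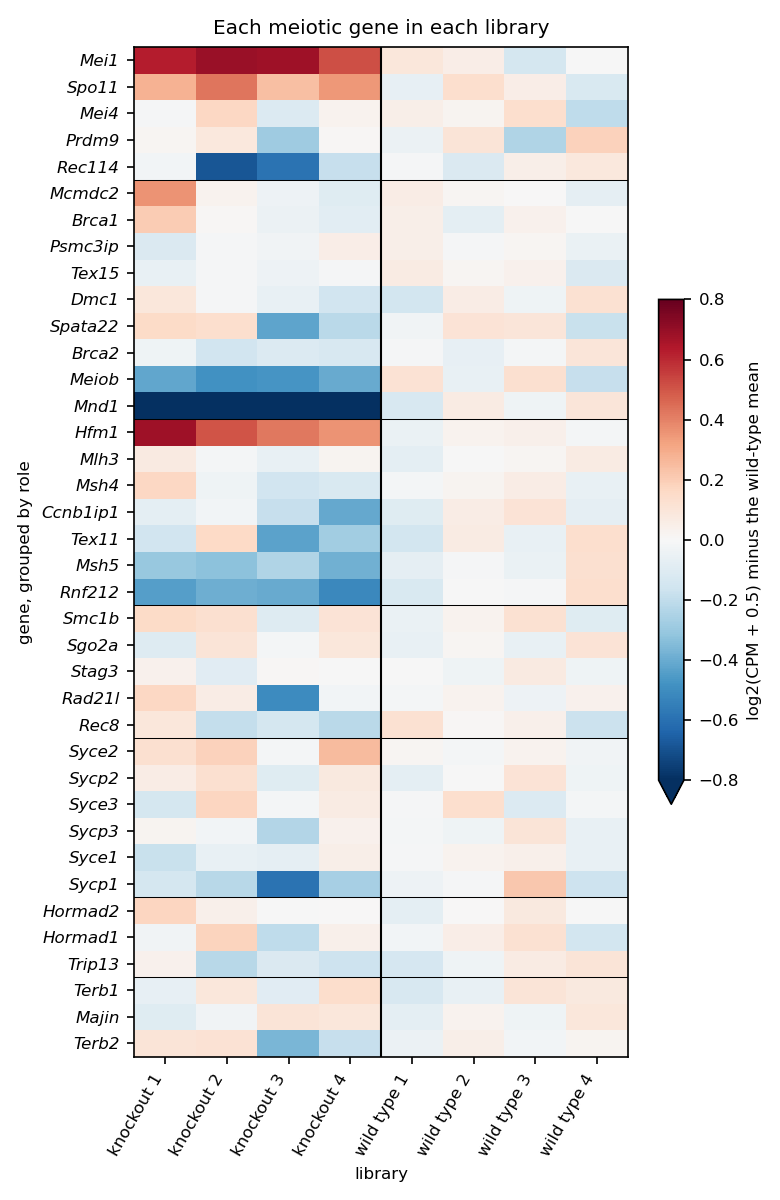
Log2(CPM + 0.5) minus the mean of the libraries labelled wild type (colour, clipped at 0.8 either way) for the 38 genes (rows, by role) in 4 libraries labelled knockout (left) and 4 labelled wild type (right). Mei1, Spo11 and Hfm1 are high and Mnd1, Meiob, Msh5 and Rnf212 low in all 4 libraries labelled knockout, and replicate 3 labelled knockout is low across many rows.

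The libraries labelled knockout differed among themselves in the whole set. Replicate 3 was the lowest of its group for 17 of the 38 genes and the highest for 2, and the same count over all tested genes was not made. The 38 genes summed to 2383 CPM in that library, 2556 to 2570 CPM in the other 3 labelled knockout, and 2440 to 2650 CPM in those labelled wild type. The mean deviation of the 30 genes not called from the level under the wild-type label was -0.15 log2 units in replicate 3 labelled knockout, -0.04 to 0.03 in the other 3, and -0.03 to 0.03 in the libraries labelled wild type. Over all tested genes the mean deviation was -0.01 in replicate 3 labelled knockout and -0.02 to -0.001 in the other 3. In replicate 3 it was -0.11 for the further genes of meiotic prophase and 0.02 for the pachytene genes, both lists given below. Replicate 3 labelled knockout was also the shallowest library, with 31133443 reads, and the part of depth was not tested. Without it the 7 genes with separated groups and Syce2 were called, Sycp1 was not, and the median of the 38 was 0.01.

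Among 49 further genes of meiotic prophase found in the matrix, 3 rose and 6 fell, shares near those of all tested genes (8.62% higher and 8.32% lower), with a median log2 fold change of -0.03. Rnf212b, a relative of Rnf212, fell with 6.29 ± 0.638 and 9.24 ± 0.705 CPM under the knockout and wild-type labels (limma adjusted p = 0.0021). Top6bl, the partner subunit of SPO11, listed as Gm960, fell with 3.86 ± 0.372 and 5.73 ± 1.13 CPM (limma adjusted p = 0.017), and Topbp1, a checkpoint scaffold, fell with 67.5 ± 5.77 and 78.0 ± 1.00 CPM (limma adjusted p = 0.026). Spo11 thus rose where the gene of its partner fell.

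The risers of that list were Prr19, Iho1 and Wapl. Prr19, a crossover factor, stood at 48.3 ± 2.86 and 38.7 ± 2.11 CPM under the knockout and wild-type labels (limma adjusted p = 0.0026). Iho1, an axis-bound partner of MEI4 and REC114 listed as Ccdc36, averaged 18.4 ± 1.06 CPM under the knockout label and 14.4 ± 1.84 CPM under the wild-type label (limma adjusted p = 0.016). Wapl, which releases cohesin, averaged 174 ± 7.34 and 149 ± 13.2 CPM (limma adjusted p = 0.023). Hsf2bp, a partner of BRCA2 in meiosis, fell with 46.1 ± 0.755 CPM under the knockout label and 51.96 ± 1.64 CPM under the wild-type label (limma adjusted p = 0.029). Topbp1 and Hsf2bp were called in 14 of 20 alternatives, Wapl in 16, Top6bl in 18, and Rnf212b, Prr19 and Iho1 in all 20.

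Marker genes of the cells that can hold these transcripts were read beside the results, and their part in them was not tested. Their counts stand against 8.62% of all tested genes called higher and 8.32% called lower. None of 16 genes of pachytene spermatocytes and none of 9 of meiotic entry was called, and the list medians were 0.04 and -0.04 log2 units. Summed over the list, pachytene genes stood at 8444 to 9062 CPM in the libraries labelled knockout and 8529 to 8702 CPM in those labelled wild type. Differentiating spermatogonia were represented by 9 genes, of which 3 fell and none rose, and their sum was 187 to 203 CPM and 209 to 223 CPM under the knockout and wild-type labels. Of 15 tested genes of undifferentiated spermatogonia 1 rose and 2 fell, of 18 of round spermatids 1 rose, and none of 15 of elongating spermatids was called. Of the somatic lists, 5 of 12 peritubular myoid genes fell, 5 of 12 Leydig cell genes fell and 1 rose, 3 of 19 tested Sertoli cell genes fell and 1 rose, 2 of 12 endothelial genes fell and 1 rose, and 1 of 12 macrophage genes fell. Their sums were 436 to 475 and 496 to 587 CPM (myoid), 968 to 1390 and 1352 to 1601 CPM (Leydig), 1691 to 1918 and 1894 to 2031 CPM (Sertoli), 55.1 to 61.7 and 57.7 to 63.6 CPM (endothelium) and 419 to 502 and 463 to 510.1 CPM (macrophage) under the knockout and wild-type labels.

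**Figure D5:**
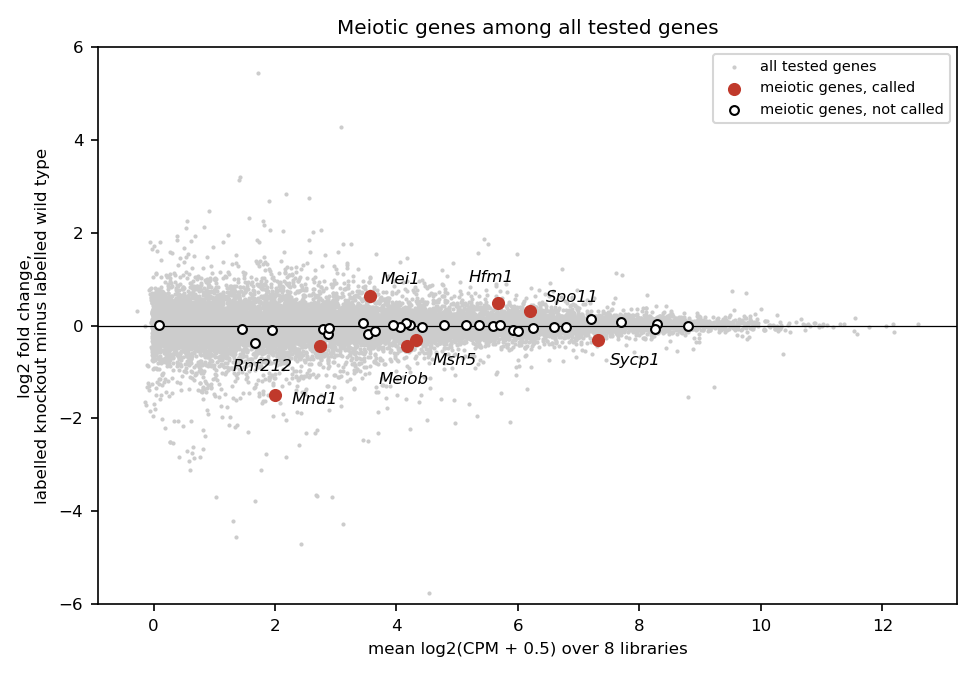
Log2 fold change (y axis, labelled knockout minus labelled wild type) against mean log2(CPM + 0.5) over 8 libraries (x axis) for 22027 tested genes (grey), with the 8 called (red) and 30 not called (open) meiotic genes. Most meiotic genes lie near 0, Mnd1 at -1.51 is the farthest from it, and grey points spread more widely at low levels.

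The called genes were spread over 5 chromosomes. In GRCm38 coordinates of GENCODE M21 (the authors used GRCm39), Mnd1 lies on chromosome 3 from 84087933 to 84155786, Sycp1 on chromosome 3 from 102818499 to 102936100, Mei1 on chromosome 15 from 82069996 to 82126814 and Spo11 on chromosome 2 from 172977700 to 172993576. Hfm1, on chromosome 5 from 106840192 to 106926321, and Rnf212, on the same chromosome from 108729290 to 108774982, went in opposite directions. Meiob and Msh5 lie on chromosome 17, from 24804289 to 24839788 and from 35028605 to 35046745. Among tested genes that start within 1 Mb of Mnd1, 1 of 10 was called, and it was higher. Around Mei1 it was 3 of 46 (6.52%), around Spo11 2 of 22 (9.09%) and around Rnf212 2 of 23 (8.70%). Around Sycp1 7 of 19 were called (36.8%) and around Hfm1 7 of 27 (25.9%). Around Meiob it was 12 of 73 (16.4%) and around Msh5 24 of 103 (23.3%), each time in both directions. Over all tested genes 16.9% were called, and clustering of calls was not tested.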

How the data were processed

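RNA-seq of adult testis used TRIzol extraction, DNase treatment and a TruSeq RNA kit, per the labels. Per the submitters' processing notes, Trimmomatic, Subread, featureCounts and GRCm39 (mm39) were used; annotation, strand and multi-mapping settings: not given in the sources used here. The authors deposited a per-library scaled signal, treated here as CPM, for 24988 genes. Columns named kpn and control with a number were matched to the titles, control being taken as wild type. Divided by the lowest nonzero value of its column, each value (100%) came out whole within 0.01, which gave back reads. A floor of 3 reads is 0.0786 to 0.0968 CPM per library, for counting error only. Columns summed to 990244 to 1025489, so they differ from plain CPM. The plan had expected plain CPM, and its log-scale test was kept.

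The test was limma 3.58.1 in R 4.3.3 (variance trend, no covariate) on log2(CPM + 0.5), kept to genes whose mean reached 0.5 CPM; the code was tested on simulated data. The exact permutation test used SciPy 1.17.1. Alternatives were median ratio and quantile scaling, pseudocounts of 0.1 and 2 CPM, no filter or one at 2 CPM, no trend, library weights, a replicate block, each library left out, and edgeR 4.0.16 (the authors' scaling or TMM) and DESeq2 1.42.0 on recovered reads. edgeR with the authors' scaling called 3694 genes and DESeq2 3961. Libraries within a group differed by more than sampling noise (chi-square of reads per degree of freedom 4.63 to 11.7). A gene name list gave symbols for 24890 identifiers. GENCODE M21 (GRCm38) gave exon lengths, and positions for 24892 identifiers. Copies were found with BLAST 2.17.0 among GENCODE M21 transcripts (at least 90% identity over 200 bases).

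Members, roles, marker lists, pairs and motifs were chosen with earlier results of these data known. Called members are given with all values, other members by counts, ranges, extremes and the genes of pairs with a called gene, and of the further prophase genes up to 4 called in each direction. Other named genes and their values were added after the values were seen, and some results are not reported here.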

Additional observations from a re-analysis of the deposited data

How the results depend on the processing

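Of 8 called members, 7 (Mei1, Spo11, Hfm1, Mnd1, Meiob, Rnf212 and Msh5) were called in all 20 alternatives, with their direction kept, as was that of Sycp1, called in 14. Members called numbered 7 to 9 when 1 library was left out (3 to 4 higher, 4 to 6 lower) and 7 or 8 otherwise. Their median log2 fold change lay between -0.051 and 0.0111 without 1 library, the highest without replicate 3 labelled knockout, and between -0.04 and -0.02 otherwise. Genes called overall numbered 2788 to 3572 without 1 library and 2997 to 4073 otherwise, against 3731; no scaling moved the median of all genes by over 0.1. Same-numbered libraries did not deviate together (correlations of -0.02, 0.04, -0.02 and -0.03), so the values show no pairing by number. They cannot tell whether such libraries shared a litter or a preparation. With the replicate block 3446 genes and the same 8 members were called. Mei4 had 15 to 24 reads per library, and the 95% interval of its log2 fold change of CPM + 0.5 was -0.27 to 0.31.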
